A study of Mus musculus with 6 samples.

Results

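The genes described here encode 8 proteins that modify clock proteins or their cofactors: the kinases Csnk1d, Csnk1e and Gsk3b, the ubiquitin ligase subunits Btrc and Fbxl21, the deacetylase Sirt1, the NAD+ enzyme Nampt, and Timeless. Their members in the data are all BMAL1 peaks whose summit lay inside one of these genes or within 10 kb of it, with genes placed by the RefSeq table of GRCm38.p6, whose chromosomes are those of mm10. These were 72 of the 179475 peaks of the library Control 1 and 61 of the 138254 of Bmal1 CKO 2, at 8 of 21900 protein-coding genes. The study sequenced chromatin precipitated with a rabbit antibody to BMAL1 from retinas of 3 wild-type mice (Control 1 to 3) and 3 mice in which Bmal1 was conditionally deleted (Bmal1 CKO 1 to 3), with 1 peak list for each library. All were of the C57BL/6 strain, had no external treatment and were weaned at postnatal day 20. The sources used here do not give the driver of the deletion, the cells that lose the gene, the age or the time of day at collection. As to the labelled tissue, a peak lay within 1 kb of an end of 4 of 8 rod genes and 5 of 8 genes silent in retina in the Control 1 list, where 69.5% of all protein-coding genes had one. In the Bmal1 CKO 2 list it did for 4 and 1 of them, beside 58.9%.

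BMAL1 and its partner CLOCK bind E-boxes and switch on the period and cryptochrome genes, whose products return to the nucleus and repress BMAL1 and CLOCK. The speed of this loop is set largely after translation. Casein kinases 1 delta and epsilon phosphorylate period proteins, SCF ubiquitin ligases with F-box proteins such as BTRC and FBXL21 recognise period and cryptochrome proteins for degradation or stabilisation, and SIRT1 removes acetyl groups with the use of NAD+. Nampt is itself a known target of CLOCK and BMAL1 in other tissues, and the NAD+ it makes feeds back on the clock through SIRT1.

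The start sites of 6 of the 8 genes were found in the RefSeq promoter table (GRCm38.p6), which gives 250 bases before and 50 bases after each start. At 4 of them, Sirt1, Nampt, Fbxl21 and Gsk3b, both Control 1 and Bmal1 CKO 2 listed a peak, and these promoters are printed because the peaks cover them. Capitals mark the E-box (CACGTG) in Sirt1 and the half-site of ROR and REV-ERB receptors (AGGTCA) in Nampt.
Sirt1, chr10:63338986-63339285, minus strand: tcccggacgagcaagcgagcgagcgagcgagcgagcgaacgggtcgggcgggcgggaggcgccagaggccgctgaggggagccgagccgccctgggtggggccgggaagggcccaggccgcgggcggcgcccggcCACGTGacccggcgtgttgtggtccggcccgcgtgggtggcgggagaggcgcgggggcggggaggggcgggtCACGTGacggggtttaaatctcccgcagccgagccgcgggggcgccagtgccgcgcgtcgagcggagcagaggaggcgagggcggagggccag
Nampt, chr12:32820085-32820384, plus strand: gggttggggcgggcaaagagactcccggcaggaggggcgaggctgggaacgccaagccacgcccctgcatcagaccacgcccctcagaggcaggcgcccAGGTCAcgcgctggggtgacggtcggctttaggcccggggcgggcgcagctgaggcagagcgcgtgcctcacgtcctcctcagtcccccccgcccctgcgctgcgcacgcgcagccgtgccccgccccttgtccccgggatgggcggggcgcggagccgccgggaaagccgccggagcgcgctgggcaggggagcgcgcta
Fbxl21, chr13:56522222-56522521, plus strand: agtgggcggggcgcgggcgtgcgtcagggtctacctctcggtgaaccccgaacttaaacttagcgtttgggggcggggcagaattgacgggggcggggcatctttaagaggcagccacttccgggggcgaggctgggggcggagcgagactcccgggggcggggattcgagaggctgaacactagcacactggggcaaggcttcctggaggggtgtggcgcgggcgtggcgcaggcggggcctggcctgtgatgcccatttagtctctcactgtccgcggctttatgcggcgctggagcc
Gsk3b, chr16:38088751-38089050, plus strand: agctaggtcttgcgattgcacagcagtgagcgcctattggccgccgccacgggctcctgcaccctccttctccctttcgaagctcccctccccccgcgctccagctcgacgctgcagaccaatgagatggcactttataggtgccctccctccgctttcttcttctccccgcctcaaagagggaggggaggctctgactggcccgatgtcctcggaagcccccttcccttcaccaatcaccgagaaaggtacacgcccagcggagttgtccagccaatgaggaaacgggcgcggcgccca

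Sirt1 carried the only E-box among these promoters, and it carried it at 2 places. Both strands were searched for each motif. The E-boxes began 115 and 43 bases upstream of the start, at 63339145 to 63339150 and 63339073 to 63339078 on chromosome 10. Of 32851 promoters of the same length 7.15% held an E-box and 0.594% held 2 or more. Both E-boxes lay inside the Control 1 peak and inside the Bmal1 CKO 2 peak. The summit of Control 1 was 12 bp from the nearer E-box and 84 bp from the other, and that of Bmal1 CKO 2 was 243 and 315 bp away. The half-site in Nampt began 151 bases upstream of the start and lay inside the peaks of both libraries, and 16.3% of all promoters held one. The D-box (TTATGTAA), the site of DBP, TEF, HLF and NFIL3, was found at the Timeless start site, with 0.938% over all promoters, but no peak of Control 1 or Bmal1 CKO 2 covered it. The cAMP response element (TGACGTCA) was found in 0 of the 6 genes and in 1.79% of all promoters. No E-box letters were found in these windows at Nampt, Fbxl21, Gsk3b, Csnk1e and Timeless. A match is a description of letters, not a bound site.

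**Figure D1:**
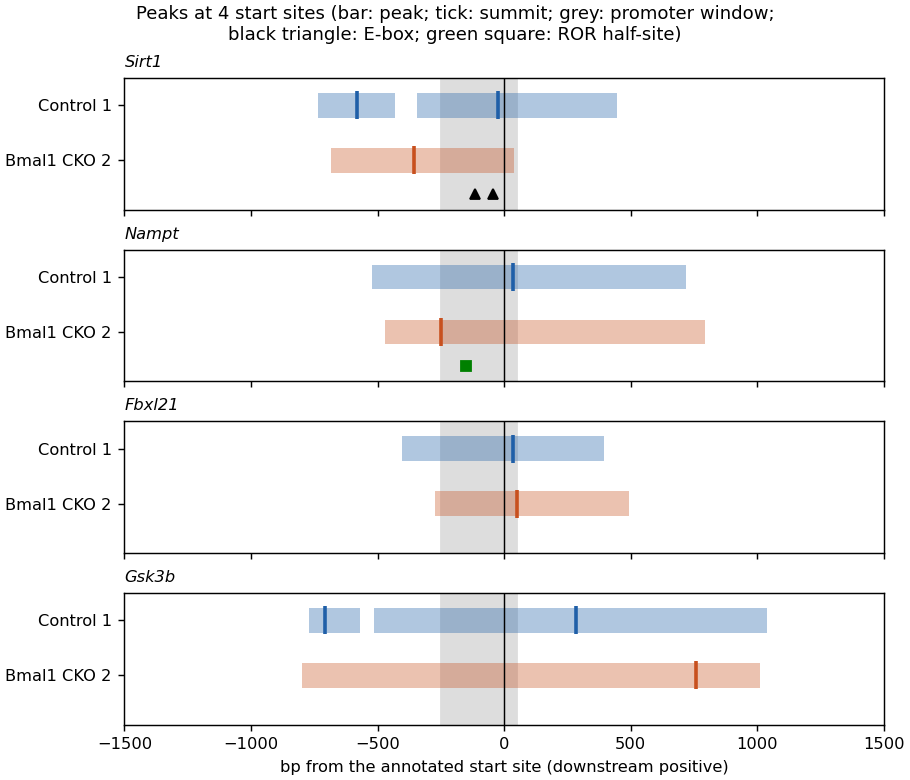
Peaks of Control 1 (blue) and Bmal1 CKO 2 (orange) around the start sites of Sirt1, Nampt, Fbxl21 and Gsk3b, in bp from the start with downstream positive; bars are whole peaks, ticks are summits, the grey band is the printed promoter, black triangles are E-boxes and the green square is the ROR half-site. Every one of these peaks except the smaller upstream peaks of Control 1 at Sirt1 and Gsk3b overlaps the printed window.

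Over the whole promoter table, promoters with an E-box carried a summit within 1 kb of the start more often than those without, in the long lists of both genotypes. The share was 71.7% of 2349 promoters with an E-box against 54.2% of the others in Control 1, and 61.2% against 44.9% in Bmal1 CKO 2. The share also moved with base composition. Among the 11074 promoters with a GC content of 58.3% to 89.3%, where Sirt1 (79.0%), Nampt (76.3%), Fbxl21 (67.7%) and Gsk3b (63.0%) fall, it was 93.0% with and 89.7% without an E-box in Control 1, and 81.4% and 76.1% in Bmal1 CKO 2. A peak at a GC-rich promoter was therefore the usual case in both lists. The part of base composition in the peaks of these genes was not tested.

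Peaks at the 8 genes came from 1 library of each genotype. Control 1 and Bmal1 CKO 2 each had a peak in or within 10 kb of all 8 genes, where 92.6% and 87.8% of all protein-coding genes had one. Control 2, Control 3, Bmal1 CKO 1 and Bmal1 CKO 3 listed 0 peaks there, and 0.781%, 0.758%, 2.05% and 1.08% of all protein-coding genes had one in their lists. Their lists held 410, 372, 1444 and 519 peaks. The number of fragments stacked at each summit and the background there, recovered from the deposited fold and p-value, gave the genome-wide background in fragments per base, which was 3.46 for Control 1, 5.83 for Bmal1 CKO 2, 2.78 for Bmal1 CKO 1 and 0.560 to 0.852 for the other 3. Bmal1 CKO 2 was thus 1.69 times as deep as Control 1 and its folds rest on more background fragments.

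A peak at a gene end was found at the same 7 genes in both long lists, all but Csnk1e. An end peak had its summit no more than 1 kb from an annotated end, either one. Of all protein-coding genes 69.5% had one in the Control 1 list and 58.9% in that of Bmal1 CKO 2. The 4 short lists had end peaks at 0 of the 8 genes, beside shares of all protein-coding genes of 0.0594% for both Control 2 and Control 3, 0.342% for Bmal1 CKO 1 and 0.105% for Bmal1 CKO 3. Of all genes with an end peak in Control 1, 78.6% also had one in Bmal1 CKO 2, and 54.7% of all protein-coding genes had one in both. The 7 of 8 genes are 87.5% in each list, and this count was not tested against the shares of all genes. The highest end fold of a gene had a median of 4.26 over the 7 genes in Control 1 and 3.50 in Bmal1 CKO 2, beside 3.93 and 3.10 over all genes with an end peak.

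Among the kinase genes with an end peak, Csnk1d (gene 104318; chromosome 11, 120957709 to 120991350) had a lower highest end fold than Gsk3b in both long lists. Control 1 listed it at 120991203, 147 bp inside the upper end. Its fold was 2.97, from 29 stacked fragments where the background was 9.10. The peak was 896 bp wide. Bmal1 CKO 2 split the same stretch into a peak at 120991289, whose fold was 2.81 (42 fragments over 14.3), and a narrower one at 120990746, with 2.14. The first summits were 86 bp apart, and Csnk1d stood at percentile 18.7 of all end folds in Control 1 and 33.5 in Bmal1 CKO 2. The long noncoding RNA gene LOC115486436 begins within 1 kb of these summits, so the peak cannot be given to Csnk1d alone. Inside that neighbour, 5596 bp beyond the end of Csnk1d, Control 1 had a summit with a fold of 2.88 and Bmal1 CKO 2 one with 2.36, only 9 bp apart. No peak lay deeper than 1 kb inside Csnk1d in either list.

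Csnk1e (gene 27373; chromosome 15, 79417852 to 79455579), which encodes the close relative epsilon, had no end peak and the fewest peaks per length. Control 1 listed 3 peaks in or within 10 kb, or 0.520 per 10 kb, and Bmal1 CKO 2 listed 1, or 0.173 per 10 kb, at percentiles 22.4 and 13.8 of all protein-coding genes. The strongest had a fold of 2.61, at 79462901, and 2.15, at 79462297. Both lay in the noncoding gene Gm41359 beyond the upper end and did not overlap. The single peak inside the gene, in Control 1 at 79420744, had a fold of 2.50.

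The promoter table places 4 start sites of Csnk1e inside the annotated gene, between 79441818 and 79442143, with GC contents of 64.3% to 80.7%. The nearest summit was 20758 bp or more from each start in Control 1 and 20154 bp or more in Bmal1 CKO 2. Of the 11074 promoters with a GC content of 58.3% or more, 8.46% had no summit within 1 kb in either long list and 0.334% had none within 20 kb. At the highest GC contents, 80% and above, 8.14% had none within 1 kb and 1.16% none within 20 kb. Csnk1e was singled out here after its values were seen. The background at its peaks was 2.23 to 3.38 times the genome-wide level in Control 1 and 2.62 times in Bmal1 CKO 2, and that of Csnk1d was 2.12 to 3.76 and 2.01 to 2.91 times. Background differed by the place of a peak: over the 8 genes its median was 1.98 times at the ends, 2.12 in the flanks and 1.13 inside in Control 1, and 1.82, 1.97 and 1.21 in Bmal1 CKO 2. Of the 12 peaks at the casein kinase genes, 1 lay inside. The fold of a peak is relative to that background, and the part of the background in the low folds and few peaks of the casein kinase genes was not tested.

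Gsk3b (gene 56637; chromosome 16, 38089001 to 38246084), which encodes glycogen synthase kinase 3 beta, a kinase of several clock proteins, had the widest end peak and the most peaks inside the gene. Control 1 listed a peak of 1556 bp over its start site, with a summit at 38089283, 282 bp downstream, and a fold of 4.26 from 35 fragments over a background of 7.46. It listed another of 202 bp upstream, with a fold of 2.68. In Bmal1 CKO 2 both were overlapped by 1 peak of 1811 bp with a summit at 38089757 and a fold of 3.58 from 44 fragments over 11.6. The summits of the main peaks were 474 bp apart. The noncoding gene BC031361 has an end within 1 kb of these summits. At the other end of Gsk3b only Control 1 had a peak, 257 bp outside, with a fold of 3.06.

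The ligase gene Btrc (gene 12234; chromosome 19, 45363688 to 45533343) and Fbxl21 (gene 213311; chromosome 13, 56522388 to 56537898) had the highest end folds of the group. BTRC is the F-box protein that binds phosphorylated period proteins. At Btrc, Control 1 had a fold of 5.54 at 45364187, from 43 fragments over a background of 6.94, and Bmal1 CKO 2 had 3.80 at 45363646, from 43 fragments over 10.6. The stacked fragments were equal in number, and the background was higher in Bmal1 CKO 2. The summits were 541 bp apart, within peaks of 955 and 883 bp.

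FBXL21 is an F-box protein that binds cryptochromes. Control 1 had a fold of 5.56 at 56522506, 34 bp downstream of the Fbxl21 start site, from 41 fragments over 6.56. Bmal1 CKO 2 had 3.71 at 56522524, 18 bp further on, from 38 fragments over 9.50. This was the closest agreement in summit position among the end peaks of the group. Bmal1 CKO 2 also had a peak 930 bp inside the other end of Fbxl21, with a fold of 2.57, in a stretch shared with the gene Lect2. Btrc and Fbxl21 both stood at percentile 85.9 of end folds in Control 1 and at 79.0 and 76.6 in Bmal1 CKO 2.

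Nampt and Sirt1 form the NAD+ arm. At Nampt (gene 59027; chromosome 12, 32820335 to 32853369), the rate-limiting enzyme of NAD+ salvage, Control 1 had a summit at 32820370, 35 bp downstream of the start, with a fold of 4.93 from 34 fragments over 6.10. Bmal1 CKO 2 had one at 32820085, 250 bp upstream, with 3.50 from 32 fragments over 8.44. Both peaks spanned the start with similar widths, 1240 and 1265 bp. At Sirt1 (gene 93759; chromosome 10, 63319005 to 63339035) Control 1 had a summit at 63339061, 26 bp upstream of the start, with a fold of 3.86 from 29 fragments over 6.78, and a smaller one at 63339618, with 2.95. Bmal1 CKO 2 had 1 peak over both places, with a summit at 63339393, 358 bp upstream, and a fold of 3.13 from 33 fragments over 9.86. The Sirt1 folds lay near the middle of all end folds, at percentiles 48.3 and 51.6, although its promoter held 2 E-boxes.

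Timeless (gene 21853; chromosome 10, 128232063 to 128252941) encodes a protein of the replication fork that binds clock repressors. Control 1 had an end peak at 128232258, 195 bp inside the lower end, with a fold of 4.24 from 35 fragments over 7.50. Bmal1 CKO 2 had one at 128232151, 107 bp away, with 2.81 from 34 fragments over 11.5. The summits lie in the noncoding gene Gm26847 and within 1 kb of the end of Mip, the gene of a lens water channel, so 3 genes share the peak. The start site that the table gives for Timeless, at 128238066, had its nearest summit 3699 bp away in Control 1 and 5915 bp away in Bmal1 CKO 2.

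**Figure D2:**
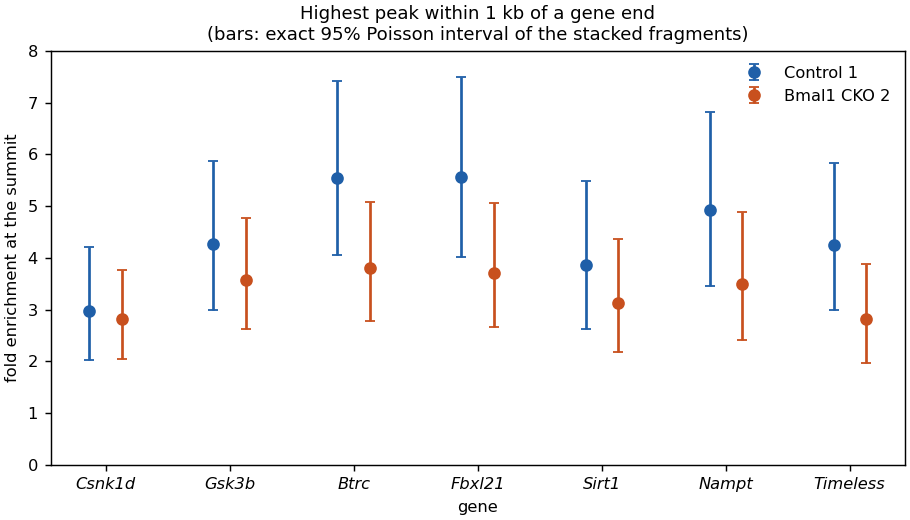
Fold enrichment at the highest end peak of each of the 7 genes that have one, in Control 1 (blue) and Bmal1 CKO 2 (orange); bars are exact 95% Poisson intervals of the stacked fragments over a fixed background. Control 1 is the higher at all 7 genes, from 2.97 to 5.56 against 2.81 to 3.80, and the bars of the 2 libraries overlap at each gene.

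The end fold was lower in Bmal1 CKO 2 than in Control 1 at 7 of 7 genes, and at 94.7% of the 11974 genes with an end peak in both. The counting error of a single summit is wide. At Fbxl21 the exact 95% Poisson interval of the fold was 4.02 to 7.49 in Control 1 and 2.66 to 5.06 in Bmal1 CKO 2, at Sirt1 it was 2.62 to 5.48 and 2.18 to 4.36, and the intervals overlapped at each of the 7 genes. These intervals cover counting error only, and a summit is chosen as the highest place of its peak. With 1 library of each genotype listing these peaks, depth, library and genotype cannot be told apart.

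Scaled to the depth of Control 2 and Bmal1 CKO 3, 0 of the 7 end peaks of Control 1 reached the lowest −log10 p-value in those lists, 6.76 and 5.05. Scaled to Control 3 only Btrc did, with 6.21 against a limit of 6.20. Scaled to Bmal1 CKO 1, all 7 did, with values of 6.25 to 16.7 against a limit of 5.45, as did 4 of the 7 from Bmal1 CKO 2 (Nampt, Gsk3b, Fbxl21 and Btrc). The list of Bmal1 CKO 1 held none of them. Why the short lists lack these peaks was not tested. Its nearest peaks lay 117 kb from Btrc, 189 kb from Timeless and 207 kb from Fbxl21, and at least 1694 kb from each of the other 5 genes.

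Away from the ends, Gsk3b and Btrc held most of the peaks, and they are also the longest genes of the group. Counts in the gene and within 10 kb were 28 in Control 1 and 26 in Bmal1 CKO 2 for Gsk3b, 17 and 18 for Btrc, 6 and 4 for both Fbxl21 and Sirt1, 5 and 2 for Nampt, 4 and 4 for Csnk1d, 3 and 2 for Timeless, and 3 and 1 for Csnk1e. Of the 72 peaks of Control 1, 57 had their summit inside a gene, and of the 61 of Bmal1 CKO 2, 51 did. Per 10 kb of window the genes had a median of 0.920 peaks in Control 1 and 0.847 in Bmal1 CKO 2, beside 0.963 and 0.650 over all protein-coding genes. The density ranged from 0.520 at Csnk1e to 1.69 at Fbxl21 in Control 1, and from 0.173 at Csnk1e to 1.47 at Gsk3b in Bmal1 CKO 2. Gsk3b stood at percentiles 84.8 and 92.8 of all genes and Fbxl21 at 88.2 and 82.2. Fbxl21 summits at 56529926, 56533796 and 56543689 in Control 1 and at 56533932 and 56536968 in Bmal1 CKO 2 lay inside the gene Lect2. These peaks cannot be given to Fbxl21 alone. The table gives no exons, so peaks inside a gene could not be placed in exons or introns.

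**Figure D3:**
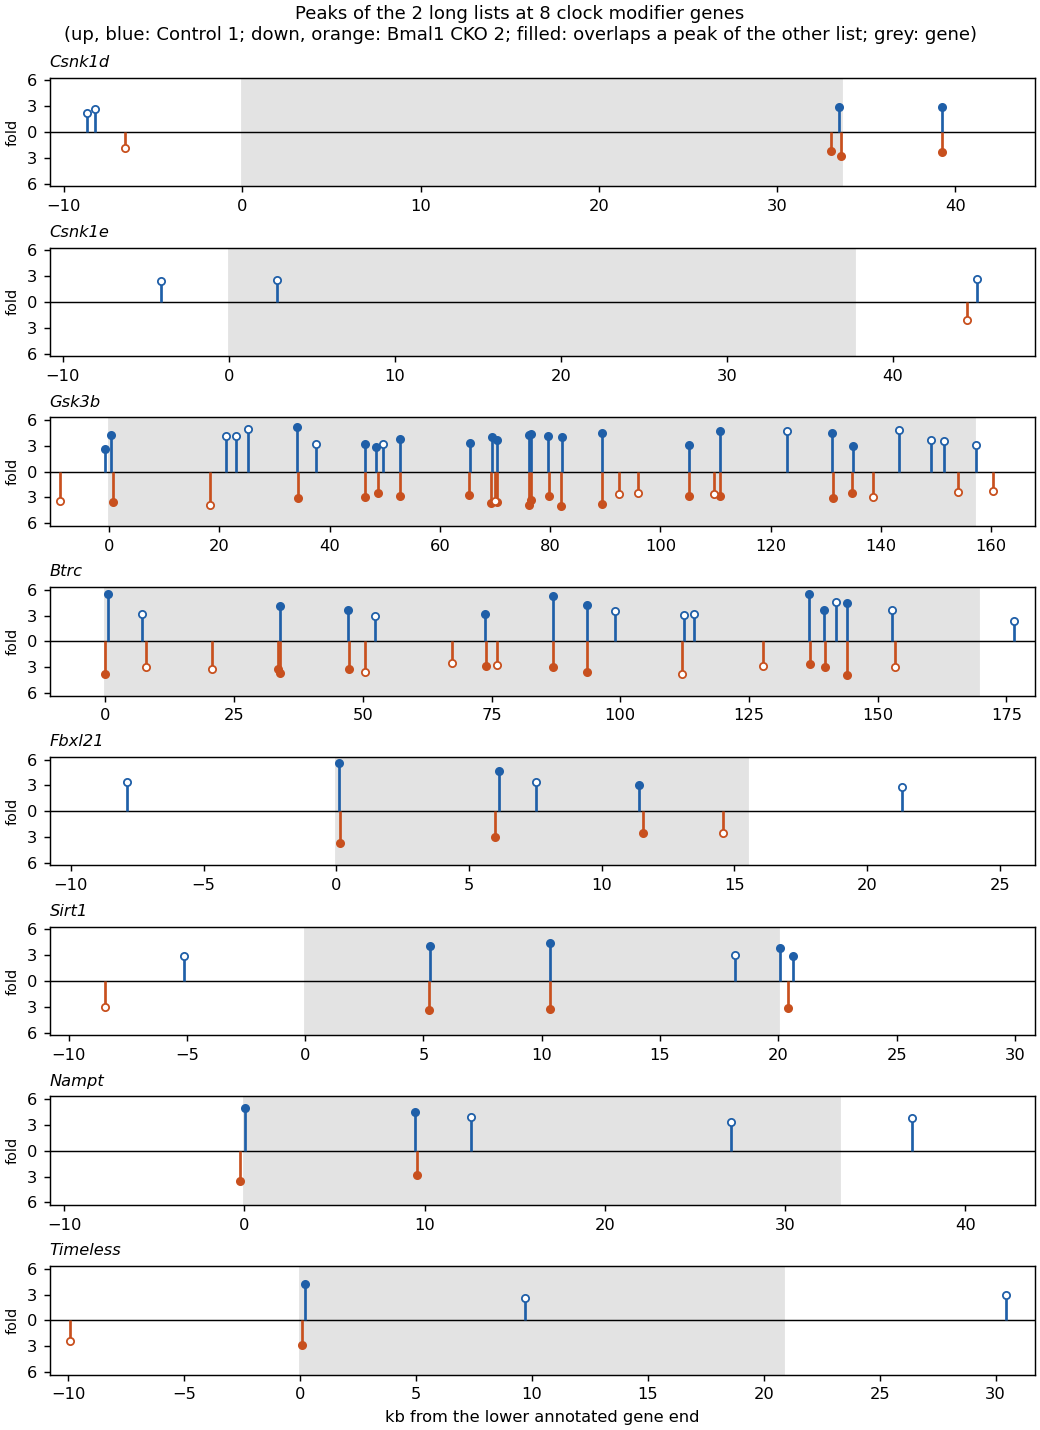
Position of every peak of Control 1 (blue, up) and Bmal1 CKO 2 (orange, down) in the 8 genes and 10 kb around them, in kb from the lower annotated gene end (grey: gene), with the fold enrichment as height; filled points overlap a peak of the other list. Filled pairs at 1 gene end are the end peaks of 7 genes and are not the tallest at each, Csnk1e has open points only, and Gsk3b and Btrc carry a row of paired peaks along the gene.

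At Gsk3b the inside peaks of the 2 libraries fell largely on the same places. Of 25 inside peaks of Control 1, meaning summits in the gene and more than 1 kb from its ends, 16 overlapped a peak of Bmal1 CKO 2. The highest in Control 1 lay 34126 bp from the lower end, at 38123127, with a fold of 5.17 against 3.05 in the overlapping peak of Bmal1 CKO 2. The highest in Bmal1 CKO 2 lay at 38171051, with 4.0 against 4.04 in Control 1. A run of pairs crossed the middle of the gene, among them summits at 38165081 and 38165132 with folds of 4.31 and 3.89. The Gm25617 small nucleolar RNA gene lies inside Gsk3b, and the summits at 38158372 in Control 1, with 4.02, and 38158307 in Bmal1 CKO 2, with 3.65, were within 1 kb of it.

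Btrc had 15 inside peaks in Control 1, of which 8 overlapped Bmal1 CKO 2. The highest in Control 1 had a fold of 5.47 at 45500288, against 2.58 in the overlapping peak of Bmal1 CKO 2, and the highest in Bmal1 CKO 2 had 3.90 at 45507733, against 4.52. A second tall peak of Control 1, with 5.33 at 45450719, and its partner 4 bp away in Bmal1 CKO 2, with 3.01, lay inside the pseudogene Gm6807. Another shared place, with 4.08 in Control 1 and with 3.23 and 3.66 in Bmal1 CKO 2, lay inside the pseudogene Gm18104. A pseudogene can match its parent gene in sequence, and the sources used here do not say how reads with several matches were treated, so these pairs are uncertain.

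The shorter genes had few inside peaks, and some recurred closely. Sirt1 had a pair at 63329335 and 63329362, with folds of 4.37 and 3.31, and another at 63324288 and 63324258, with 4.04 and 3.37. Each of these inside peaks had a higher fold than the end peak of its library at the 2 E-boxes. The end peak had more stacked fragments, over a higher background. In Control 1 it had 29 over 6.78, and the inside peaks 19 over 3.58 and 17 over 3.46. In Bmal1 CKO 2 it had 33 over 9.86, and the inside peaks 23 over 6.24 and 22 over 5.83. Nampt had a pair at 32829827 and 32829934, with 4.45 and 2.81. Fbxl21 had one at 56528507 and 56528379, with 4.63 and 3.00. At Timeless the strongest peaks away from the ends lay outside the gene, at 128262508 in Control 1 with 2.99 and at 128222126 in Bmal1 CKO 2 with 2.40, and neither recurred.

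Of the 72 peaks of Control 1 at these genes, 39 (54.2%, exact 95% binomial interval 42.0% to 66.0%) shared at least 1 bp with a peak of Bmal1 CKO 2, and of the 61 of Bmal1 CKO 2, 39 (63.9%, 50.6% to 75.8%) did with Control 1. Over all peaks in or within 10 kb of protein-coding genes the shares were 41.0% and 56.7%. At gene ends 9 of 10 and 8 of 9 peaks recurred, beside 64.4% and 85.3%. Inside the genes 29 of 51 (56.9%, 42.2% to 70.7%) and 30 of 45 (66.7%, 51.0% to 80.0%) did, beside 35.4% and 49.5% over all genes. In the flanks 1 of 11 and 1 of 7 did, beside 39.0% and 51.7%. The classes are not alike on the 2 sides. Peaks at these genes were classed by their own gene of the 8, and peaks over all genes by any protein-coding gene. Flank peaks here that lie in a neighbour such as Slc16a3 or Herc4 would there count as end or inside peaks. Gsk3b and Btrc supplied 25 and 15 of the 51 inside peaks of Control 1, and 16 and 8 of the 29 that recurred, so the inside share is largely theirs. Peaks of 1 gene share a library and a locus and are not independent, so the binomial intervals are too narrow.

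**Figure D4:**
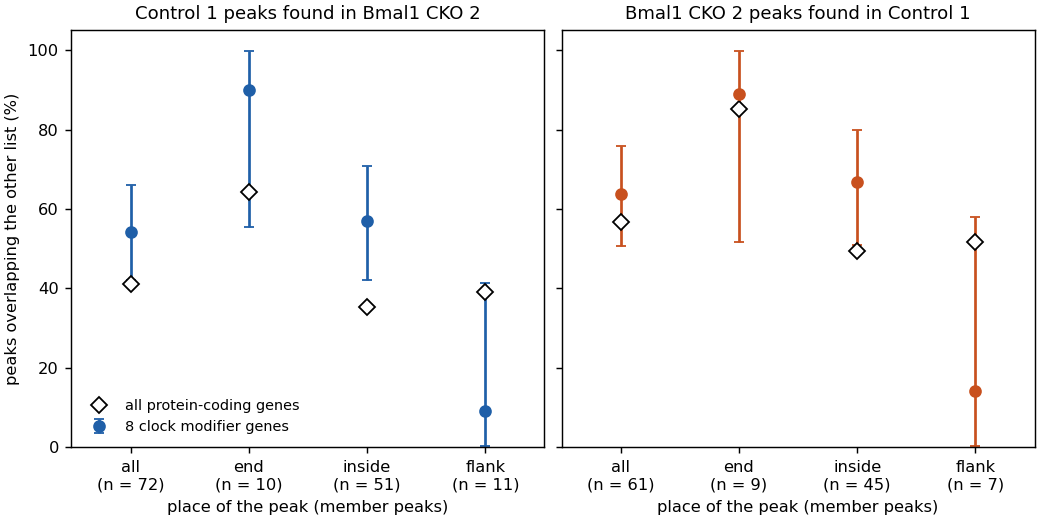
Share of peaks that overlap a peak of the other long list, for Control 1 (left, blue) and Bmal1 CKO 2 (right, orange), at the 8 genes (points, with exact 95% binomial intervals) and over all protein-coding genes (open diamonds), by place of the peak. Inside the genes the points, at 56.9% and 66.7%, lie above the diamonds at 35.4% and 49.5%, and in the flanks, at 9.09% and 14.3%, below those at 39.0% and 51.7%. Points class a peak by its own gene of the 8 and diamonds by any protein-coding gene, so the classes are not alike.

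Recurring peaks away from the ends had a higher median fold in Control 1 than the others there, but the folds overlapped. The 30 recurring pairs away from the ends had a median distance of 60 bp between summits (4 to 244 bp), whereas the 9 at the ends had 285 bp (18 to 1462 bp) in wider peaks. Recurrence was defined by an overlap of at least 1 bp, so the widths of the peaks limit how far apart their summits can lie. The distances are therefore not a result apart from the widths. The median width of end peaks was 795 bp in Control 1 and 721 bp in Bmal1 CKO 2, and that of inside peaks 276 and 258 bp. In Control 1 the 30 recurring peaks away from the ends had a median fold of 4.06 and the 32 others 3.25. In Bmal1 CKO 2 the medians were 3.01 over 31 and 2.88 over 21. Of the 39 recurring peaks of Control 1, 37 had a higher fold there than any overlapping peak of Bmal1 CKO 2. A lower fold in Bmal1 CKO 2 was also the usual case over all genes, at 94.7% of those with an end peak in both lists. The summit distances and the folds of recurring and other peaks were not computed over all genes. Whether they are particular to these genes was therefore not tested.

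Genes of the same pathway, from a list of 34 other kinases, phosphatases, ligases and NAD+ genes, also had end peaks in the long lists. These were found at 28 of 34 (82.4%) in Control 1 and 26 of 34 (76.5%) in Bmal1 CKO 2, with 24 in both, and 0 in each short list. Over all protein-coding genes the shares were 69.5%, 58.9% and, in both, 54.7%. By role, 11 and 9 of 12 other kinases had one, 4 and 3 of 5 phosphatases, 7 and 6 of 8 ubiquitin ligases and proteases, and 5 and 7 of 8 genes of NAD+ metabolism and sirtuins. Tipin, the partner of Timeless at the replication fork, had 5.70 and 3.85. Like Csnk1e, the casein kinase gene Csnk1a1 had no end peak in either list, nor had Ppp1cc, Usp7 and Nmnat3. Fbxw11, the close relative of Btrc, had folds of 4.31 and 3.10.

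The highest end folds of that list were 5.97 at Ppp1cb, a catalytic subunit of protein phosphatase 1, and 5.82 at Cul1, the scaffold of SCF ligases, in Control 1. In Bmal1 CKO 2 they were 4.44 at the deubiquitinase gene Usp9x and 4.36 at Ppp1cb. Csnk2b, Cdk5, Ppp1ca and Skp1 had an end peak in the Control 1 list alone, with folds of 3.62, 2.03, 3.03 and 4.04. Sirt6 and Naprt had one in the Bmal1 CKO 2 list alone, with 2.36 and 2.22. Usp9x (3.94 and 4.44) and Dyrk1a (3.51 and 3.85) had the higher fold in Bmal1 CKO 2, and were named after their values were seen. The period and cryptochrome genes, whose products these enzymes modify, had end peaks at 5 and 4 of 5 genes, and the REV-ERB and ROR genes at 5 and 2 of 5. Per1, Nr1d1 and Rora were among those with one in Control 1 alone, with folds of 2.06, 2.54 and 3.16. Cry1 had the highest end fold of the period and cryptochrome genes in Bmal1 CKO 2, with 4.40, and Per3 in Control 1, with 5.05. Lists this short were not tested against each other.

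**Figure D5:**
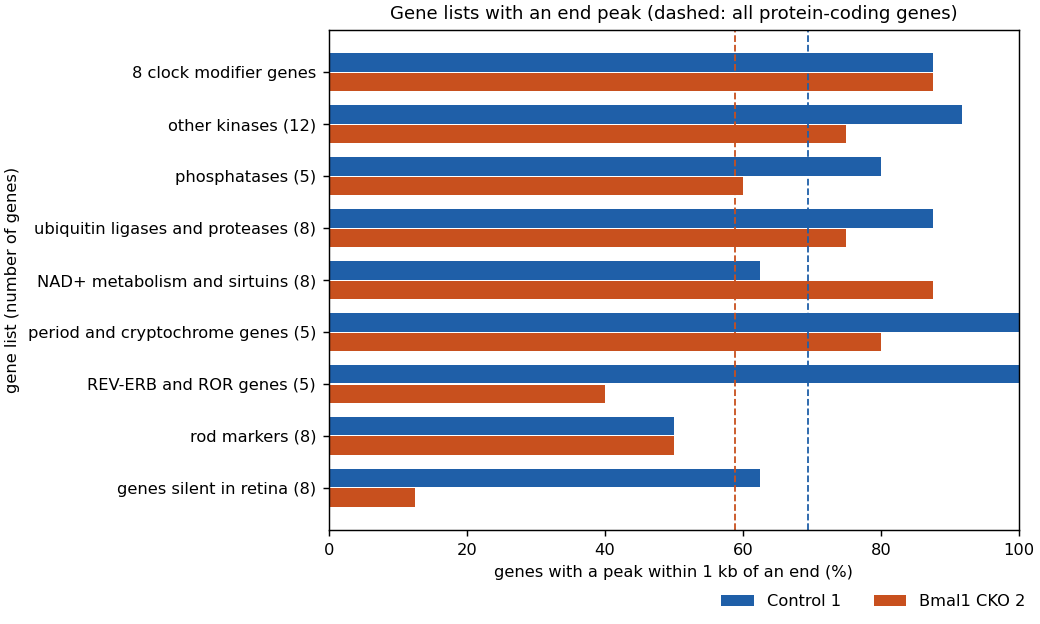
Share of genes with a peak within 1 kb of an end in Control 1 (blue) and Bmal1 CKO 2 (orange), by gene list, with the share over all protein-coding genes as dashed lines at 69.5% and 58.9%. The 8 clock modifier genes stand at 87.5% in both libraries, near the other kinases (91.7% and 75.0%) and the ligases (87.5% and 75.0%).

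Between genotypes the number of peaks per gene did not separate the libraries. On the scale of log10 of the peaks plus 1, the difference of Bmal1 CKO minus Control was 0.008 at Btrc, 0 at Csnk1d, and between −0.010 (Gsk3b) and −0.100 (Nampt and Csnk1e) at the other genes. At Gsk3b the mean was 0.487 ± 0.844 in Control and 0.477 ± 0.826 in Bmal1 CKO (SD, n = 3 each), with an exact two-sided permutation p of 1.00. The p was 1.00 at all 8 genes, before and after Benjamini-Hochberg adjustment over 21900 genes, and the smallest p this design allows is 0.10. Over all genes 0 (0%) passed an adjusted p of 0.05 and 0 had an unadjusted p under 0.05, with a lowest p of 0.200. With 0 peaks in 2 libraries of each genotype this p is 1.00 whatever the remaining counts, so it does not show that the genotypes are alike.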

How the data were processed

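The authors deposited 1 peak list for each of 6 libraries. Trim Galore, Bowtie2, MACS2 and the build mm10 are named in the submitters' processing notes. Versions, parameters and whether an input served as control are not given in these sources. The deposited columns used here are the fold enrichment, the −log10 p-value and q-value, and the offset of the summit. Summits are printed here counted from 1. The fold is a ratio to a local background, and whether that background came from the same library or from an input is not given. The deposited score is 10 times the −log10 q-value, without decimals. File numbers differ from the titles of the samples, and the series record decided which list belongs to which library. Folds were used to describe and rank peaks within a list, and were also set side by side between the long lists without a test.

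Peaks were assigned to 21900 protein-coding genes by their summit, in the gene or within 10 kb, with end peaks within 1 kb of either end. The stacked fragments and background were solved from fold and p-value with a Poisson tail and a pseudocount of 1, and came out whole within 0.02 in 100.0% of peaks of each library. Depth is thus known only as this relative background. Numbers of peaks were compared between genotypes with an exact permutation test over 20 assignments. Code was tested on simulated data. Python 3.11.15, SciPy 1.17.1 and pandas 2.3.3 were used.

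The genes and lists were chosen with earlier results of these data known. Named were all 8 genes with their end peaks, the highest other peak of each in the long lists, and pathway genes with an end peak in 1 long list alone or the 2 highest end folds. Of the motifs, CACGTG was planned and the other 3 were chosen after the promoter sequences were seen. Some single pathway genes are not reported here. Alternatives are given in the closing section.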

Additional observations from a re-analysis of the deposited data

How the results depend on the processing

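The count of 7 genes with an end peak in each long list, that of 8 with any peak, and the counts of 0 in the other libraries stayed within 1.5 times of their values under every alternative run but 1. With the annotated start sites alone, known for 6 of the genes, 4 had a peak in each long list. With a −log10 q-value of at least 5, the peaks at the 8 genes numbered 35 instead of 72 in Control 1 and 19 instead of 61 in Bmal1 CKO 2, and with a common −log10 p-value limit of 6.76, 41 and 32. The share that recurred was 29.2% of Control 1 peaks and 34.4% of Bmal1 CKO 2 peaks when summits had to lie within 100 bp, and 37.1% of Control 1 peaks under the q-value limit. The common limit, the scaling of Bmal1 CKO 2 to the depth of Control 1 and the comparison without both long lists were chosen after seeing the data. The causes of these changes were not tested.

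Without 1 library at a time, the genotype difference in log10 peaks ranged from −0.418 to 0.426 at Btrc, −0.233 to 0.233 at Csnk1d, −0.201 to 0.10 at Csnk1e, −0.282 to 0.233 at Fbxl21 and at Sirt1, −0.487 to 0.477 at Gsk3b, −0.259 to 0.159 at Nampt and −0.201 to 0.159 at Timeless. With the q-value limit it was −0.032 at Btrc. The highest value came without Control 1 at every gene. The exact permutation p over these alternatives was 0.7 to 1.0, and 0 of 21900 genes passed under each. With the replicate block, an exact sign-flip test over 3 pairs of equal number, 0 genes passed as well. With so few libraries, the smallest p that each of these tests allows lies above the limit for passing. No gene could pass under any alternative, so these counts do not show that the result is stable. The deviations of equal-numbered libraries correlated at −0.77, −0.79 and 0.77 across genes. These signs follow from which libraries have the long lists, so they cannot show whether equal numbers pair the mice.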

Other observations

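Several pairs of peaks away from the gene ends had nearly the same summit in Control 1 and Bmal1 CKO 2. They were picked as close pairs after their values were seen. Over all 30 recurring pairs away from the ends the median distance was 60 bp (4 to 244 bp), and distances over all genes were not computed. Pairs were defined by overlap, so short distances between narrow peaks follow in part from that rule. At Gsk3b the summits at 38135489 and 38135493 were 4 bp apart, with folds of 3.19 and 2.97, and those at 38199785 and 38199790 were 5 bp apart, with 4.72 and 2.84. Beyond Csnk1d the pair in LOC115486436 was 9 bp apart, and at Sirt1 the inside pairs were 27 and 30 bp apart. The main end peaks of Sirt1 were wider, 790 bp in Control 1 and 721 bp in Bmal1 CKO 2, and had their summits 332 bp apart. The smaller end peak of Control 1 had its summit 225 bp from that of Bmal1 CKO 2. All these peaks come from 1 wild-type and 1 Bmal1 CKO library, so depth, library and genotype cannot be told apart.

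The nearest peak to Btrc in each of the 4 short lists lay 117 kb from the gene.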
